A study of Mus musculus with 2 samples.

Results

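The cells described here were the 503 cells of the serum/LIF embryonic stem cell (ESC) library with the highest summed level of 6 p53 target genes, 87 of which lacked pluripotency RNA, out of 10065 ESC-library cells that passed the filters and 25611 cell barcodes in the series. The score was the number of unique molecular identifiers (UMIs, 1 per captured mRNA molecule) of Mdm2, Trp53inp1, Ddit4l, Ccng1, Cdkn1a and Phlda3 per 10000 UMIs of the cell. Members were the highest 5% of cells and the comparison was the lowest 50% (5032 cells), with 4530 cells between them. A cell had to hold at least 1000 genes, at most 10% mitochondrial UMIs, and no UMI of Col1a2 or Gata6, markers of fibroblasts and of primitive endoderm. The last condition removed 989 of 11054 cells.

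The study mixed equal numbers of WT (ROSA mT/mG, carrying a tdTomato reporter) and Cnot8 KO cells of ICR strain. It made 1 droplet library of serum/LIF ESCs (0 h) and 1 library of cells differentiated for 48 h toward the epiblast-like state (48h-EpiLCs). The latter were grown in N2B27 medium with activin A, bFGF and KSR. Both libraries therefore hold both genotypes, although the genotype tag of each reads wild type. The feeder cells that the paper names were mitomycin C-inactivated embryonic fibroblasts of the same strain. The paper describes feeder-free dishes for ESCs in inhibitor and LIF medium. It does not say whether the serum/LIF ESCs were grown on feeders. The protein made by Cnot8 removes poly(A) tails as part of the Ccr4-Not deadenylase. The ESC library held a median of 10965.5 UMIs per barcode and 41 barcodes occurred in both libraries. With 1 library per stage there was no biological replicate, so no test was made. Every interval below is an exact 95% interval that covers counting error only.

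The protein p53, encoded by Trp53, is a transcription factor that is kept scarce in unstressed cells by Mdm2, a ubiquitin ligase which p53 itself switches on. DNA damage and other stresses stabilise p53, and its target genes then slow the cell cycle, repair DNA, alter metabolism or promote apoptosis. In ESCs p53 activity varies between cells of 1 culture, and strong activation is known to favour differentiation or death. Of the score genes, Cdkn1a encodes the cyclin-dependent kinase inhibitor p21, Ccng1 encodes cyclin G1, Phlda3 restrains Akt, Trp53inp1 is a stress protein that amplifies p53 responses, and Ddit4l inhibits mTORC1 signalling. In the annotation used here (GENCODE M21, GRCm38) Mdm2 (ENSMUSG00000020184) lies at chr10:117688875-117710758, Trp53inp1 (ENSMUSG00000028211) at chr4:11156431-11174379, Ddit4l (ENSMUSG00000046818) at chr3:137621612-137628333, Ccng1 (ENSMUSG00000020326) at chr11:40748552-40755311, Cdkn1a (ENSMUSG00000023067) at chr17:29090976-29100727 and Phlda3 (ENSMUSG00000041801) at chr1:135766119-135769136.

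A 20-base p53 element, a pair of adjacent 10-base half-sites, was searched on both strands of the window from 250 bases before to 50 bases after each RefSeq gene start (GRCm38.p6), with at most 2 mismatches. Of 27025 genes, 254 (0.940%) held a match, as did 2 of the 5 score genes that had a window and 3 of the 38 p53 targets outside the score that had one. The matches of 7 genes that differ between the classes below are shown, with Bmp4 the 1 of them that was lower in members. Those of Cdkn1a, Ccng1 and Gtse1 had 1 mismatch and the others shown had 2. Matches of Rps27l (1 mismatch), Sparc, Usp17la, Usp17lb and Usp17lc (2 mismatches each) are not shown. No share with a match was taken over the named genes outside the score and the p53 targets. Capitals mark the positions of the C and G at the core of each half-site.
Cdkn1a: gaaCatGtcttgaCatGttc
Ccng1: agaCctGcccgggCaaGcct
Zfp365: agaCtaGgctgggCaaGact
Gtse1: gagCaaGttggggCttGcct
Ckap2: agaCatGtcctgaCttGtca
Trp73: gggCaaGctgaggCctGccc
Bmp4: agaCtaGttggtgCatGctt
These lie at chr17:29090928-29090947 (+ strand, Cdkn1a), chr11:40755462-40755481 (− strand, Ccng1), chr10:67912706-67912725 (− strand, Zfp365), chr15:85859945-85859964 (+ strand, Gtse1), chr8:22186003-22186022 (− strand, Ckap2), chr4:154097220-154097239 (− strand, Trp73) and chr14:46390872-46390891 (− strand, Bmp4). A match describes letters in the window and is not evidence of binding, and genes without one may hold elements outside it.

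The lowest member score was 11.3 UMIs per 10000 and the highest was 220.5. The cut fell within a tie, since the highest non-member had the same score as the lowest member, and the next cells inside and outside it scored 11.35 and 11.33. Comparison cells scored at most 3.15, and 7.59% of all passing cells held no score UMI. A member carried a median of 16 score UMIs, the lowest 3. At least 3 of the 6 genes were detected in 483 members (96.0%), at least 5 in 326 (64.8%) and all 6 in 134 (26.6%), while 110 members owed over 50% of their score UMIs to 1 gene. Members were shallower than the comparison, with a median of 9953 against 12039 UMIs per cell. The share of mitochondrial UMIs was alike, with medians of 4.17% in members and 3.83% in the comparison.

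The label of the cells was checked against 14 naive and 5 core pluripotency genes (Nanog, Klf2, Esrrb, Zfp42, Dppa5a, Pou5f1, Sox2, Utf1 and others). Of the members, 87 held fewer than 25 UMIs of these genes per 10000, compared with 26 of the 5032 comparison cells, and 47 members lay near this cut, between 15 and 35. These 87 members do not bear the ESC label out. They held a median of 8.39 pluripotency UMIs per 10000, against 52.5 in the other 416 members and 55.9 in the comparison cells retained. In their summed UMIs Nanog stood at 3.48 CPM (UMIs of the gene per 1000000 UMIs of the class) against 71.5 in the comparison, and Esrrb at 5.21 against 53.9. Of 13 fibroblast markers, 12 were measured in these 87 cells and all 12 were at least 1.5-fold above the comparison, with a summed level of 3046 against 138 CPM. Their median log2 ratio was 4.72, against −0.04 over all genes. No share of all genes past the limit was taken for these cells.

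Single genes showed the same division. Inhba, encoding an activin subunit, was at 552.6 CPM in the 87 members, 5.28 in the 416 others and 2.02 in the 5006 comparison cells with pluripotency RNA. S100a4, a calcium-binding protein of fibroblasts, was at 1056, 14.5 and 7.25 CPM, and Acta2, smooth muscle actin, at 858, 5.94 and 8.19 CPM. In the 416 others the summed fibroblast markers stood at 128.5 CPM against 131.2 in the comparison, with 4 of the 13 measured and 2 of those 1.5-fold higher. The macrophage genes Lyz2 and C1qa were at 196 and 48.7 CPM in the 87 cells and gave no UMI in the 416. No tdTomato UMI was seen in the 87 cells, which allows a share of up to 4.15%. Cells of the ESC library with at least 3 Col1a2 UMIs, which the rule removes, had a median score of 21.0, and 113 of 143 scored above the lowest member. The 6-gene score was therefore high in cells with fibroblast RNA as well as in ESCs, and the results below are given for all members and for the 416 members and 5006 comparison cells with pluripotency RNA. This split was made after the values were seen.

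**Figure D1:**
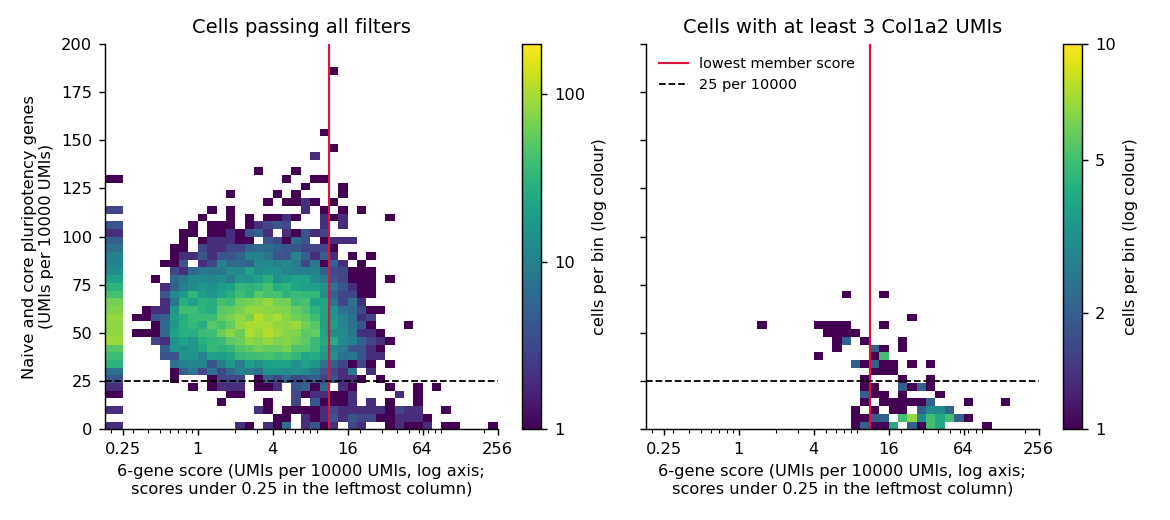
Each bin counts cells by their 6-gene score (x axis, log scale, UMIs per 10000) and their naive and core pluripotency UMIs per 10000 (y axis), for the 10065 passing cells (left) and the 143 cells with at least 3 Col1a2 UMIs (right). The solid line is the lowest member score of 11.3 and the dashed line the 25 UMIs per 10000 used to separate members; 87 members lie to the right of the first and under the second, where most Col1a2 cells lie too.

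The levels of the 6 score genes follow from the rule and are given as a description. Mdm2 was at 540 CPM in members (2766 UMIs) and 47.0 CPM in the comparison (3020 UMIs), and Cdkn1a at 381 (1952 UMIs) and 17.5 CPM (1126 UMIs). Ccng1 was at 300 and 50.7 CPM, Phlda3 at 281 and 27.9, Trp53inp1 at 193 and 16.4, and Ddit4l at 85.0 and 4.28. Cells between the classes held intermediate levels of each gene, for example 78.5 CPM of Cdkn1a and 151 CPM of Mdm2. In the 87 members without pluripotency RNA Cdkn1a made up 38.3% of the score UMIs and reached 1329 CPM. In the other 416 members Mdm2 led with 33.6%, Cdkn1a gave 16.7%, and Cdkn1a stood at 261 CPM.

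Whether the 6 genes went together was measured by leaving each out in turn and choosing the members by the other 5. Every left-out gene was then higher in the members. Ddit4l was 10.8-fold higher (interval 9.37 to 12.5), Cdkn1a 10.0-fold (9.41 to 10.7), Trp53inp1 5.98-fold (5.49 to 6.51), Mdm2 5.36-fold (5.07 to 5.65), Phlda3 5.10-fold (4.76 to 5.46) and Ccng1 3.31-fold (3.11 to 3.52). The members chosen without Mdm2 shared 373 of 503 cells with the full score, and those chosen without Ddit4l 476. Choosing anew among cells with pluripotency RNA gave 9.05-fold for Ddit4l, 5.92-fold for Cdkn1a and 4.79-fold for Mdm2. Cdkn1a thus lost most when the other cells were taken out. When the UMIs of every cell were divided at random into a pair of equal samples, with the members chosen on one and measured on the other, Mdm2 was 5.98-fold and Ccng1 3.16-fold higher.

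**Figure D2:**
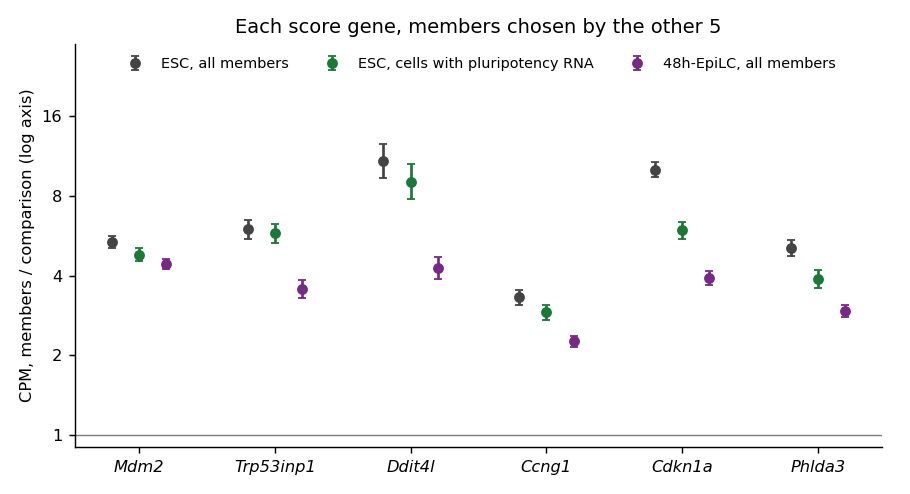
CPM in members divided by CPM in the comparison (y axis, log scale) for each score gene, with the members chosen by the other 5 genes; bars are exact 95% counting intervals. All 18 values lie above 1, from 2.26 (Ccng1 in 48h-EpiLCs) to 10.8 (Ddit4l in all ESC members).

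The other p53 targets were higher in the members as well. Of 47 further targets listed by role, 41 had a mean of at least 5 CPM, and 30 of these were at least 1.5-fold higher in members while none was 1.5-fold lower. Over all 9478 genes counted, 10.7% were 1.5-fold higher and 2.04% were 1.5-fold lower. The median log2 ratio of the 41 targets was 1.27 and that of all genes −0.01. With pluripotency RNA required, 28 of 41 were 1.5-fold higher (background 6.77%) and none lower (background 1.6%), with a median of 1.23. The 6 targets under the CPM limit (Trp53cor1, Fas, Ddb2, Dglucy, Cd82 and Cyfip2) were all higher in members than in the comparison, from 1.17-fold for Ddb2 upward, on few UMIs. Score and targets were read from the same cells, so these counts are a description.

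Among 11 measured targets that act on the cell cycle and stress signalling, 8 were 1.5-fold higher in all members (background 10.7%). With pluripotency RNA required, 8 of 11 were higher too (background 6.77%). Btg2, an antiproliferative protein that binds the Ccr4-Not deadenylases, was at 102 CPM in the 416 members and 9.5 in the comparison, or 10.8-fold higher (9.54 to 12.2). Plk2, a polo-like kinase that restrains the cycle, was 9.95-fold higher (98.6 and 9.9 CPM). The other members of the group moved less. The sestrin Sesn2 was 2.57-fold higher, Psrc1, a spindle protein, 2.54-fold, Zmat3, an RNA-binding protein, 2.25-fold, Sfn (14-3-3 sigma) 1.94-fold, and Gtse1, which restrains p53 in G2, 1.64-fold. Gadd45a, Sesn1 and Plk3 stood near the comparison, at 1.16-fold (0.976 to 1.38), 1.16-fold (0.871 to 1.51) and 1.05-fold.

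Of 10 measured targets with roles in apoptosis, 8 were 1.5-fold higher in all members (background 10.7%) and 7 with pluripotency RNA required (background 6.77%). Perp, a membrane protein, was 7.28-fold higher (6.24 to 8.48), Apaf1, the scaffold of the apoptosome, 3.87-fold (3.15 to 4.73), the BH3-only gene Pmaip1 3.72-fold (3.19 to 4.33) and the BH3-only gene Bbc3 2.97-fold (2.55 to 3.45). The death receptor genes Eda2r and Tnfrsf10b were 3.27-fold and 2.48-fold higher. Bax, the pore-forming effector, was abundant in both classes, at 627 and 500.5 CPM, or 1.25-fold. Bad, Diablo and Bak1, apoptosis genes that are not listed as p53 targets, were at 0.994-fold, 0.875-fold and 0.802-fold.

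Among DNA repair genes the members parted in 2 sets. Zfp365, a zinc finger protein linked to replication fork recovery, was 9.98-fold higher (38.5 and 3.9 CPM), the translesion polymerase gene Polk 4.33-fold and the nucleotide excision gene Ercc5 3.56-fold. In contrast, Xpc, Polh and Rrm2b were at 0.975-fold, 1.10-fold and 1.31-fold, each with an interval that spans 1. In the metabolic group 11 of 14 were 1.5-fold higher in all members (background 10.7%) and 10 of 14 with pluripotency RNA (background 6.77%). Ephx1, an epoxide hydrolase, was 7.48-fold higher on 43 and 81 UMIs, Dcxr, a xylulose reductase, 5.15-fold, the peptide transporter gene Tap1 4.77-fold, the stress cytokine gene Gdf15 4.12-fold and the thiamine transporter gene Slc19a2 3.08-fold. Tigar, a regulator of glycolysis, was at 0.89-fold (0.787 to 1.01).

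**Figure D3:**
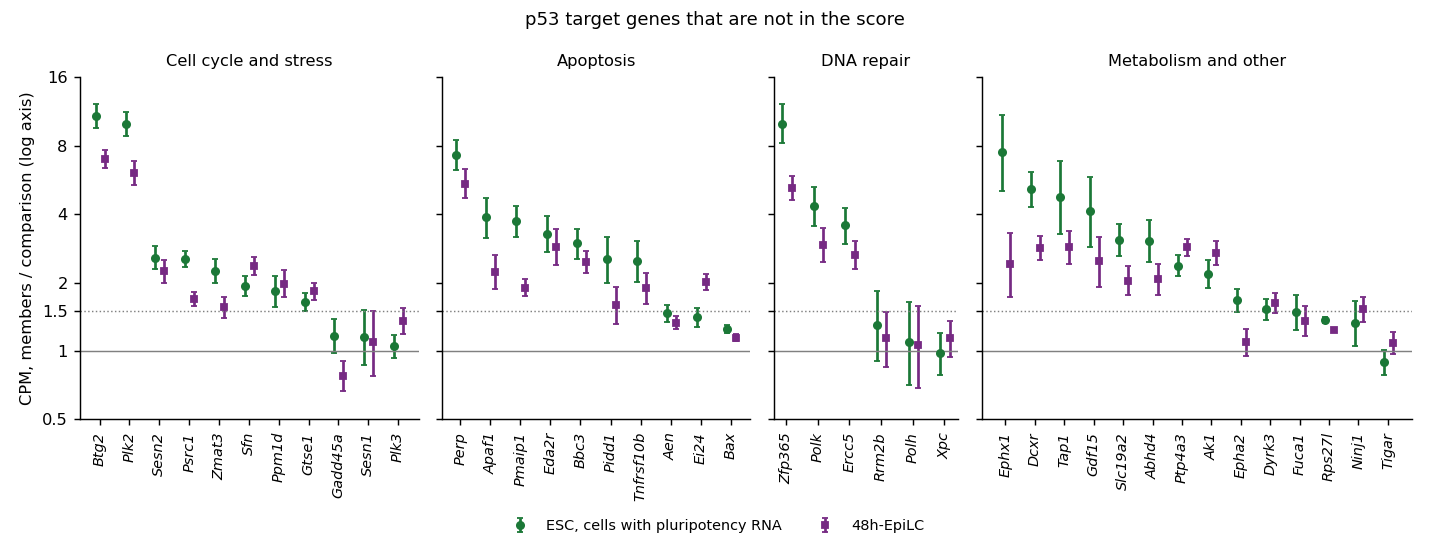
CPM in members divided by CPM in the comparison (y axis, log scale) for the p53 targets outside the score, grouped by role, in ESCs with pluripotency RNA (circles) and 48h-EpiLCs (squares); bars are exact 95% counting intervals, the solid line marks 1 and the dotted line 1.5. Btg2, Plk2, Zfp365, Perp and Ephx1 lie highest in ESCs, where 28 of 41 genes are at least 1.5-fold higher. Gadd45a, Sesn1, Plk3, Bax, Rrm2b, Polh, Xpc and Tigar are among the genes under 1.5.

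The higher levels were spread over many members. The 5 cells richest in a target held between 3.67% and 25.6% of the UMIs of that gene in the 416 members, with a median of 11.1%, the median over all genes being 10.9%. Btg2 was seen in 60.6% of these members (55.7 to 65.3) and in 10.5% of the comparison, and Plk2 in 53.6% and 10.7%. With each cell thinned to 5000 UMIs (387 members and 4829 comparison cells, 29 and 177 shallower cells left out), a member held a median of 18 UMIs of the p53 targets outside the score and a comparison cell 11. In 10 equal bins of the score among cells with pluripotency RNA, the summed level of these targets was 2097 CPM in the lowest bin, 2402 in the fifth, 2914 in the ninth and 3414 in the tenth. The increase thus ran through the whole range of the score and was not limited to the highest bin.

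Trp53 mRNA itself was at 338 CPM in members and 331 in the comparison, or 1.02-fold (0.971 to 1.07). Of 15 measured regulators of p53, 2 were past 1.5-fold, a share near the 10.7% of all genes, with a median log2 ratio of 0.08. Mdm4, the partner of Mdm2 in restraining p53, was at 121 and 58.5 CPM (2.06-fold, 1.89 to 2.24), and Trp73, a p53 family member, at 10.2 and 2.0 CPM (5.10-fold, 3.62 to 7.09). The kinases Atm and Chek1, which activate p53 after damage, were at 0.85-fold and 0.75-fold, and at 0.90-fold and 0.83-fold with pluripotency RNA required.

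**Figure D4:**
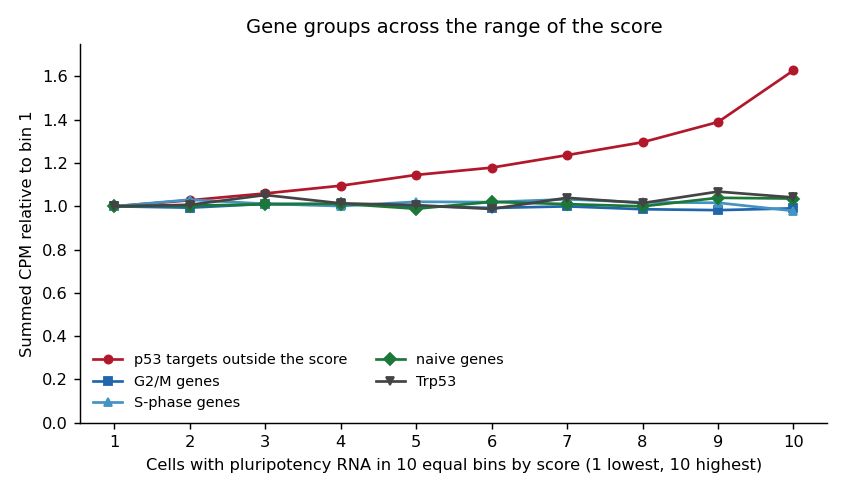
Summed CPM of gene groups, and of Trp53, in 10 equal bins of cells with pluripotency RNA ordered by the 6-gene score (x axis), each divided by its value in the lowest bin (y axis). The p53 targets outside the score climb from bin to bin to 3414 CPM in the tenth, whereas the G2/M, S-phase and naive genes and Trp53 stay near their first value.

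Cell cycle genes differed little between ESCs of high and low score. None of 24 S-phase genes and 1 of 33 G2/M genes were past 1.5-fold in either direction. With pluripotency RNA required the background was 6.77% higher and 1.6% lower. The median log2 ratio of the G2/M genes was −0.12 in all members and 0.01 in those with pluripotency RNA. In the 87 members without it 32 of 33 G2/M genes were 1.5-fold lower, with a median of −1.77 against −0.04 over all genes. There 21 of 24 S-phase genes were 1.5-fold lower too. No share of all genes past the limit was taken for these 87 cells, which were shallower (median 5376 UMIs). Thinned to 5000 UMIs, members and comparison with pluripotency RNA both held a median of 26 G2/M UMIs, and 18 and 19 S-phase UMIs. The exception was Ckap2, a spindle protein, at 137 and 73.3 CPM (1.87-fold, 1.73 to 2.02). S-phase genes were slightly lower, with a median of −0.19 in all members and −0.10 with pluripotency RNA required. Ccne1, cyclin E1, was at 0.78-fold in the latter.

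Of 13 G1 cyclins, kinases and inhibitors, 11 were measured with pluripotency RNA required and 4 were 1.5-fold higher, with a median log2 ratio of −0.04 (background 6.77% and −0.01). The 4 were Rb1, Cdkn2b, Rbl2 and Cdkn2a, all inhibitors, whereas Cdkn1c was at 1.15-fold and Rbl1 at 0.869-fold. Rb1, the retinoblastoma gene, was at 18.0 and 3.4 CPM with pluripotency RNA required (5.32-fold, 4.08 to 6.89), and Cdkn2b, encoding p15, at 20.2 and 5.6 CPM (3.62-fold, 2.85 to 4.56). The D-type cyclin gene Ccnd3 was at 0.74-fold. The antiproliferative genes Btg1 and Tob1, whose products bind the Ccr4-Not complex as Btg2 does, were 2.38-fold and 1.57-fold higher. They belong to a list of 8 measured genes tied to this deadenylase. With pluripotency RNA required, 6 of the 8 were above the comparison, with a median log2 ratio of 0.13 (−0.01 over all genes). Only Btg1 and Tob1 were 1.5-fold higher and none was 1.5-fold lower (background 6.77% and 1.6%). The 2 below the comparison were Cnot1, the scaffold, and Cnot7, a deadenylase, at 0.90-fold and 0.89-fold. Ddit4, the paralog of the score gene Ddit4l, was at 85.6 and 24.7 CPM (3.47-fold, 3.10 to 3.88).

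Pluripotency genes were near the comparison in the 416 members or modestly lower. Of 13 measured naive genes 2 were 1.5-fold lower and 1 was 1.5-fold higher, with a median log2 ratio of −0.04. Over all genes 1.6% were 1.5-fold lower and 6.77% higher, with a median of −0.01. Klf2 and Zfp42, naive factors, were at 0.70-fold and 0.71-fold, Nanog at 0.79-fold and Pou5f1 at 0.81-fold, while Esrrb, Tfcp2l1, Tbx3 and Klf4 were between 0.97-fold and 1.00-fold. Nr5a2 and Tcl1 were at 0.63-fold and 0.64-fold, and Dppa3, a maternal and germ cell factor, at 1.67-fold. Lin28a, an RNA-binding protein, was the only one of 5 core genes past the limit, at 0.659-fold (0.585 to 0.740), and Sox2 was at 1.05-fold. Formative genes gave no member past 1.5-fold in either direction, with Dnmt3b at 0.80-fold and Lef1 at 0.70-fold.

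Few genes were much lower in members. Soga3 was at 13.9 CPM in the 416 members and 42.1 in the comparison (0.329-fold, 0.252 to 0.423), and Bmp4, a ligand that upholds self-renewal in serum culture, at 17.4 and 42.0 CPM (0.414-fold, 0.327 to 0.518). Foxd3, a transcription factor needed for pluripotent cells, was at 0.563-fold. Soga3, Bmp4 and Foxd3 were lower in both genotype lines, at 0.37-fold and 0.28-fold for Soga3 in the WT and KO lines. In all, 193 genes were 1.5-fold lower in all members and 149 with pluripotency RNA required, with 128 in both lists (66.3% and 85.9%).

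Among the genes with the highest ratios the 2 selections differed. Of 1013 genes 1.5-fold higher in all members and 632 with pluripotency RNA required, 568 were shared, or 56.1% of the first list and 89.9% of the second. The first list held genes of the 87 cells such as Inhba, Tm4sf1 and Prrx1, at 32.0-fold, 28.1-fold and 28.6-fold, which were under the CPM limit in the second. With pluripotency RNA required, Neurod1, a neurogenic transcription factor, was at 33.0 and 2.7 CPM (12.4-fold, 9.86 to 15.5), Sdc4, the proteoglycan syndecan-4, at 283 and 40.8 CPM (6.94-fold, 6.48 to 7.42), and Arap2, an Arf GTPase regulator, at 33.7 and 4.8 CPM (7.04-fold). Lpin1, a phosphatidate phosphatase, was 5.52-fold higher, and Serpine2, a protease inhibitor, 5.96-fold. Each was also past 1.5-fold in both genotype lines. Sdc4 was detected in 75.0% of these members (70.5 to 79.1) and 32.8% of the comparison, and Neurod1 in 22.1% and 2.98%. Among the cells with at least 3 Col1a2 UMIs, not known to express Neurod1, 5 of 143 held a Neurod1 UMI. The median depth was 10524 UMIs in these members, 12069.5 in the comparison and 15661 in the Col1a2 cells.

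A few leading genes came from a handful of cells. Of the 95 Mmp3 UMIs in the 416 members 92 lay in 1 cell. The 5 richest cells held 95.7% of the B020031M17Rik UMIs and 91.3% of the Platr31 UMIs. Over the 632 genes that were 1.5-fold higher, 14 (2.22%) had over 50% of their UMIs in 5 cells, as had 17 of all 9336 genes counted (0.182%). The ratios of these genes, 31.9-fold for Mmp3, 25.5-fold for B020031M17Rik and 11.7-fold for Platr31, therefore describe those cells and not the members in general.

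The cells rich in B020031M17Rik and Platr31 formed a set of their own within the members. A list of 10 genes active in the 2-cell mouse embryo and in rare ESCs (Zscan4c, Zscan4d, Zscan4f, Tcstv1, Tcstv3, Zfp352, Usp17la, Usp17lb, Usp17lc and Tmem92) summed to 32.1 CPM in the 416 members and 2.83 in the comparison, and no single gene of it reached the mean of 5 CPM. At least 3 UMIs of the list were held by 11 of 416 members (2.64%, 1.33 to 4.68) and by 10 of 5006 comparison cells (0.200%, 0.0958 to 0.367). The limit of 3 UMIs was set after the values were seen. These 11 members held 134 of the 146 list UMIs, 140 of the 141 UMIs of B020031M17Rik and 296 of the 312 UMIs of Platr31. B020031M17Rik lies at chr13:119949357-119950806 beside Tcstv1 (chr13:119893388-119894785), a region of near-identical gene copies between which UMIs may be split. Platr31 overlaps Tigar on the opposite strand, and how strand was used in counting is not given in the sources used here.

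The score of these 11 members was made up differently in several genes. Ddit4l was at 689 CPM in them and 68.1 CPM in the other 405 members with pluripotency RNA, and they held 66 of the 369 Ddit4l UMIs. Of the 11, 10 carried a Ddit4l UMI, and in 5 it gave over 50% of the score. The 10 comparison cells with at least 3 UMIs of the list held 3 Ddit4l UMIs in all. Since Ddit4l is a score gene, its level in the 11 cells and their share among members partly follow from the rule. Both are a description. Ccng1 was also higher, at 345 CPM against 273. By contrast Cdkn1a was at 62.7 CPM (6 UMIs) against 265, Trp53inp1 at 62.7 against 197, and Mdm2 at 240 against 532, each above its level in the comparison. The p53 targets outside the score summed to 3040 CPM in the 11 cells, 3736 in the 405 and 2242 in the comparison. By line, 3 of the 11 were assigned to the WT line, 5 to the KO line and 3 to neither. As a description fixed by the rule, Ddit4l was 16.1-fold higher in members with pluripotency RNA when the 11 members and the 10 comparison cells were left out. In 48h-EpiLCs 12 of 463 members held at least 3 UMIs of the list (2.59%) and 13 of 4633 comparison cells (0.281%). There Ddit4l was at 742 CPM in the 12 and 103.5 CPM in the others. These values too are a description, since the rule used Ddit4l.

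**Figure D5:**
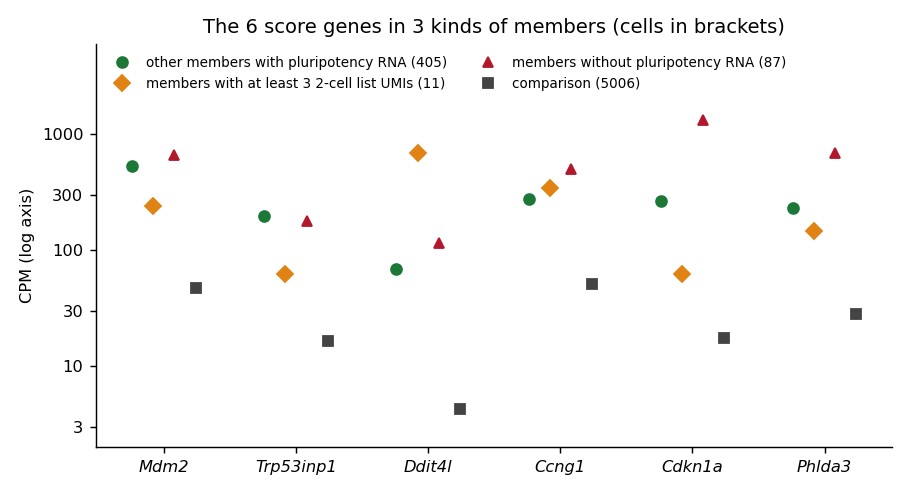
CPM (y axis, log scale) of the 6 score genes in the 405 other members with pluripotency RNA (circles), the 11 members with at least 3 UMIs of the 2-cell list (diamonds), the 87 members without pluripotency RNA (triangles) and the 5006 comparison cells (squares). Ddit4l is highest in the 11 cells at 689 CPM, Cdkn1a and Phlda3 in the 87 cells at 1329 and 693 CPM, and every gene is lowest in the comparison.

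Genes of other lineages were low in level, and 8 of 14 were under the CPM limit. Of the 6 measured, 5 were 1.5-fold higher with pluripotency RNA required (background 6.77%). Krt8, a simple epithelial keratin, was at 29.3 and 9.3 CPM (3.16-fold, 2.60 to 3.82), and Hand1, a trophoblast and mesoderm factor, at 12.1 and 2.6 CPM (4.67-fold). Here too few cells weighed heavily, since 5 cells held 57.1% of the Krt8 UMIs and 63.6% of the Hand1 UMIs of the members. Krt8 was detected in 12.3% of members (9.27 to 15.8) and 9.87% of the comparison (9.06 to 10.7), so the intervals overlapped. Of 10 immediate-early genes 5 were 1.5-fold higher and none 1.5-fold lower (background 6.77% and 1.6%). Of these 10 genes, 8 were above the comparison, with a median log2 ratio of 0.49. Jun was at 54.3 and 26.9 CPM (2.02-fold), and Myc, 1 of the 2 below the comparison, at 0.748-fold. These counts differed between groups. In the WT line 5 were 1.5-fold higher and 1 lower (background 8.99% and 3.88%). In the KO line 2 were higher and none lower (background 8.95% and 2.9%). In the epiblast-like library 2 were higher and 2 lower (background 6.94% and 1.54%), with a median of −0.12. A difference between these groups was not tested. In ESCs with pluripotency RNA the integrated stress response gave 2 of 12 measured genes 1.5-fold higher and none lower (background 6.77% and 1.6%). Only 5 of the 12 were above the comparison, with a median log2 ratio of −0.16 against −0.01 over all genes. The 2 higher genes were Ddit3, at 22.7 and 11.3 CPM, and Cebpb, at 15.6 and 9.72 CPM. The hypoxia list gave 1 of 14 there, which was Ddit4.

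Genotype lines were assigned from UMIs of 10 genes that differ between them. A tdTomato UMI was found in 375 of 3409 WT-line cells and in 44 of 5354 KO-line cells (0.822%). Cnot8 UMIs were at 44.5 CPM in WT-line and 72.4 CPM in KO-line cells, and since 3′ tags may lie outside the edited part they do not check the line. Of the members 161 were WT-line, 220 KO-line and 122 unassigned, so that 42.3% (37.2 to 47.4) of assigned members were WT-line, against 36.7% (35.2 to 38.1) of the comparison. Among WT-line cells 4.72% (4.04 to 5.49) were members, and among KO-line cells 4.11% (3.59 to 4.68), so the intervals overlapped. With pluripotency RNA required the shares were 4.48% (3.81 to 5.24) and 3.64% (3.16 to 4.18), and these intervals overlapped too. The WT-line share of assigned members was then 43.9% (38.6 to 49.3) against 36.6% (35.2 to 38.1) of the comparison. Those intervals did not overlap, but they cover counting error only and leave out unassigned cells. Of these members 17.3% were unassigned, against 11.6% of the comparison. A difference between the lines was not tested. Of the 87 members without pluripotency RNA 50 were unassigned. The 48h-EpiLC members went the other way, with 19.4% WT-line (15.7 to 23.6) against 44.6% in their comparison. Each line is 1 population in 1 library, and line and genotype cannot be told apart.

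The p53 targets were higher in members of both lines. With pluripotency RNA required, the median log2 ratio of the targets outside the score was 1.16 in the WT line and 1.21 in the KO line, with 27 of 39 and 30 of 41 1.5-fold higher (background 8.99% and 8.95%) and none 1.5-fold lower (background 3.88% and 2.9%). Single genes differed in size. Plk2 was at 139 CPM in WT-line members and 12.6 CPM in their comparison, and at 56.4 and 8.15 CPM in the KO line, while Btg2 was 15.6-fold and 8.91-fold higher, and Pmaip1 2.49-fold and 4.44-fold. Mmp3 and Platr31 were high in KO-line members only through the few cells above, at 1.72-fold and 1.93-fold in the WT line.

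The same rule applied to the 48h-EpiLC library gave 463 members of 9267 passing cells, with 41 barcodes shared between the libraries. Of 42 measured p53 targets outside the score 29 were 1.5-fold higher and none lower (background 6.94% and 1.54%), with a median log2 ratio of 0.93. The values were smaller than in ESCs for most leading targets, with Btg2 at 7.01-fold (6.41 to 7.67), Plk2 at 6.07-fold, Zfp365 at 5.20-fold and Perp at 5.44-fold. Among these targets, Zfp365 was at 11.7 CPM in the 48h-EpiLC comparison against 3.9 in the ESC comparison with pluripotency RNA, and Btg2 at 17.1 against 9.47. Plk2 and Perp were alike in the 2 comparisons, at 10.2 against 9.90 CPM and 7.59 against 7.76 CPM. The score genes Cdkn1a and Ccng1 were at 43.7 against 17.5 CPM and 118 against 50.7 CPM, levels that follow from the rule. Whether the comparison levels bear on the smaller folds was not tested. Of the genes 1.5-fold higher in ESCs with pluripotency RNA, 335 were also 1.5-fold higher in 48h-EpiLCs, of 632 in ESCs and 661 in 48h-EpiLCs (50.7% of the latter). For lower genes the overlap was 17, or 11.4% and 11.6%. Neurod1, Sdc4 and Platr31 were on both higher lists, at 9.70-fold, 4.87-fold and 9.58-fold in 48h-EpiLCs. The Platr31 ratio again describes few cells, since 5 cells held 83.4% of its UMIs in 48h-EpiLC members. Platr31 was detected in 10.8% of these members and 9.32% of their comparison. The 48h-EpiLC members were 19.4% WT-line against 44.6% of their comparison, so line and score are mixed in these ratios. Of the genes used to assign lines, 4 of 5 measured for the KO line were 1.5-fold higher there. For the WT line 3 of 4 were 1.5-fold lower. No ratio within a line was taken for 48h-EpiLCs. Differences between the stages rest on 1 library each and were not tested.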

How the data were processed

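Single-cell 3′ libraries of ESCs and 48h-EpiLCs were analysed from gene-by-cell matrices of UMI counts, which the authors made with Cell Ranger 3.0.2 at default parameters against mm10 with the tdTomato coding sequence added and deposited without normalization. The submitters' notes also name Seurat 4. How strand was used in counting is not given in the sources used here.

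The members, lists and tests were chosen with earlier results of these data known. UMIs were summed over the cells of a class and scaled to CPM. Genes with a mean of at least 5 CPM over both classes were counted, and a gene was called higher or lower past 1.5-fold. Log2 ratios were taken on CPM plus 1. Folds carry conditional binomial intervals, levels Poisson intervals and shares Clopper-Pearson intervals, all exact at 95%. Sums, folds and intervals were tested on simulated data. Leaving out 1 score gene chose the members by the other 5. Random thinning and splitting of UMIs used a fixed seed. No doublet caller was run, and an alternative left out the 10% of cells with most UMIs and the cells holding both a tdTomato and a Y-linked UMI. Lines were assigned by whether UMIs of 6 genes (Ddx3y, Eif2s3y, Kdm5d, Uty, Ipp and Nr1h5) or of 4 genes (Gc, Apoa2, Dera and Slc25a13) prevailed. The p53 element was searched in RefSeq windows around gene starts, where a wider window had been planned.

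Named genes were the score genes, the p53 targets, Trp53, the 15 genes with the largest and the 10 with the smallest ratio among those with at least 20 CPM and past 1.5-fold in both lines, the 2 highest and 2 lowest of each list, and cell type markers. The 10-gene list of the 2-cell embryo and the genes beside it were followed up after their values were seen. Tools were Python 3.11.15, numpy 2.4.6, scipy 1.17.1, pandas 2.3.3 and matplotlib 3.10.9.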

Additional observations from a re-analysis of the deposited data

Results flagged for a closer look

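Ier3, an immediate-early gene, was 3.08-fold higher in all ESC members than in their comparison but at 0.48-fold in 48h-EpiLC members, and at 1.32-fold in ESC members with pluripotency RNA. The difference between the stages was not tested. Of the ESC-library cells with at least 3 Col1a2 UMIs, which the rule leaves out, 79.0% scored above the lowest member. The part of fibroblast RNA in this was not tested.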

How the results depend on the processing

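No paired analysis was possible because each stage had 1 library. Counting intervals cover sampling of UMIs and not the variation between cultures, and genes under 5 CPM were not counted. Over 21 alternatives the median log2 ratio of the left-out score genes ranged from 1.88 to 2.84, that of the p53 targets outside the score from 0.94 to 1.53, that of the regulators from 0.0047 to 0.18 and that of the naive genes from −0.46 to −0.04. Their directions held in each of these. The 4 alternatives on pluripotency RNA, fibroblast genes and the 2-cell list were chosen after seeing the data. The cause of the differences below was not tested. Counts of genes depended on the settings. Higher genes (1013) numbered 1876 with the highest 2% of cells as members, 605 with the highest 10%, 2427 at a mean CPM of at least 1, 330 at a mean CPM of at least 20, 632 with pluripotency RNA required, 551 with members then chosen anew and 565 with fibroblast genes also barred. Lower genes (193) numbered 297 thinned to 5000 UMIs, 316 with separate UMIs for choice and measurement, 340 in the WT line, 785 and 59 with the highest 2% and 10%, 495 and 60 at the lower and higher CPM limit, and 125 with members chosen anew. The median for G2/M genes (−0.12) changed sign to 0.0022 in the KO line and to 0.0070 with pluripotency RNA required. It was −0.24 in the highest 2%, −0.038 without cells with a feeder or endoderm marker, −0.017 with members chosen anew and −0.026 with fibroblast genes barred. For S-phase genes (−0.19) it was −0.061 in the WT line, −0.47 and −0.070 in the highest 2% and 10%, −0.065 with members chosen anew and −0.069 with fibroblast genes barred. The ratio of median depths (0.827) was 0.908 thinned, 0.995 with matched depth, 0.877 in the KO line, 0.754 and 0.873 in the highest 2% and 10%, 0.890 with members chosen anew and 0.883 with fibroblast genes barred. The WT-line share of members was 37.0% in the highest 2%.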
